A study of Mus musculus with 12 samples.

Results

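The genes described here are 39 endothelial and angiogenesis genes, taken by symbol. Their list holds markers of blood and lymphatic vessels and the factors that act on them. It was chosen with earlier results of these data known. All 39 were found among the 16411 genes of the count table, and all 39 passed the expression filter that left 13191 genes for testing. They comprise 30 endothelial markers, 3 genes of lymphatic vessels and 6 secreted growth factors. The question was how the RNA of vessels and of their growth factors differed between tumors and benign tissue.

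Blood vessels are lined by endothelial cells, which are held together by cadherin and claudin junctions and are kept in that state by ETS and SOX family transcription factors. New vessels sprout when factors of the vascular endothelial growth factor (VEGF) family bind the receptors encoded by Kdr, Flt1 and Flt4, and angiopoietins acting on the receptor Tek then stabilize or loosen the vessel wall. The mammary fat pad is a vascular tissue, since its adipocytes and ducts are supplied by dense capillaries, and growing tumors are known to recruit vessels of their own.

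Female MMTV/neu-ndl-YD5 mice of the FVB strain gave 6 tumors and 6 benign mammary samples, whose RNA was sequenced. All of the mice carried the transgene, in which the MMTV promoter drives an activated form of the HER2 receptor in mammary epithelium, and none was treated. The benign samples were mammary fat pad in which no tumor was seen, taken from tumor-bearing mice at sites far from the tumors, so they are not tissue of tumor-free or wild-type animals, and the tumors and the benign samples of this experiment came from different mice. Ages of the individual animals were not given in the sources used here. The mammary label was checked against luminal epithelial genes, and their summed level was 882 to 2427 CPM (counts relative to library size, scaled by TMM in edgeR) in benign tissue and 2532 to 4123 CPM in tumors. Total counts were 5240853 to 8170687 per benign sample and 6111393 to 8588567 per tumor, at which 3 counts correspond to 0.329 to 0.556 CPM. Benign samples 3, 4 and 6 held much skeletal muscle RNA, with Acta1, the actin of skeletal muscle, at 12760, 7679 and 19330 CPM against 9.45 to 115 CPM in the others. Benign samples 4 and 6 also held 1434 and 217 CPM of Ucp1, the uncoupling protein of brown fat. Benign sample 1 stood apart for lymphocyte genes, with 110.6 CPM of Cd3e and 152.5 CPM of Cd79a. The other benign samples held at most 1.847 CPM of Cd3e and 0.6596 CPM of Cd79a. It also held 398 CPM of Ptprc, the pan-leukocyte phosphatase CD45, against 13.7 to 20.6 CPM in the other benign samples.

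Nearly all of the vascular genes were lower in tumors. Of the 39 genes, 37 were lower, 1 was higher and 1 did not pass the test, as compared by the two-sided quasi-likelihood test of edgeR with a Benjamini-Hochberg adjusted p-value under 0.1, the threshold that the study used. Of all 13191 genes tested, 34.8% were lower and 28.2% were higher by the same rule. Over the 39 genes the log2 fold change had a median of -3.14, beside -0.062 over all genes tested. In 34 of the 39 genes every tumor lay below every benign sample, a pattern found in 21.2% of all genes tested, and in 1 gene every tumor lay above every benign sample, a pattern found in 14.7%. A log2 fold change under -3 was found for 22 of the 39 genes, beside 7.6% of all genes tested. Whole tissue was sequenced, and CPM is a share of each library. Fewer endothelial cells, less RNA of these genes per cell and more RNA from other cells therefore cannot be told apart.

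**Figure D1:**
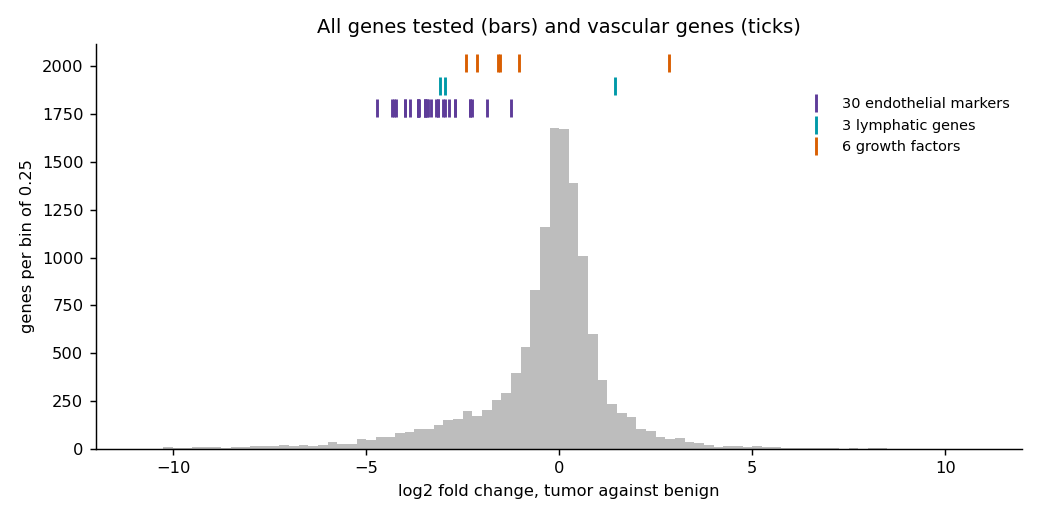
The log2 fold change (tumor against benign, x axis) is drawn for all 13191 genes tested as bars (genes per bin, y axis), with ticks above them for the 30 endothelial markers, the 3 lymphatic genes and the 6 growth factors. All 30 endothelial ticks lie left of 0, between -4.71 and -1.26, and a single growth factor lies at 2.85.

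The summed level of the 30 endothelial markers was 1832 to 3253 CPM in benign tissue and 259 to 339 CPM in tumors. All 30 markers were lower in tumors, and for none of them did the 2 groups overlap. Of the 30 log2 fold changes, 17 lay between -4 and -3. Leaving out benign samples 3, 4 and 6 kept the count at 30 of 30 with a median of -3.44, beside -3.40 with all samples, and leaving out benign sample 1 kept it at 30 of 30 with a median of -3.24.

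A core of 8 genes known mainly from endothelium fell by closely similar amounts. They are Cdh5, Pecam1, Tie1, Erg, Esam, Robo4, Mmrn2 and Rasip1, with log2 fold changes from -3.48 to -2.95. All 30 endothelial markers ranged from -4.71 to -1.26. The core was chosen with earlier results of these data known, so the likeness of its falls was not tested independently. Cdh5, the cadherin of endothelial junctions, ranged from 191 to 384 CPM in benign tissue (median 289) and from 23.0 to 30.4 CPM in tumors (median 26.7). Its highest tumor thus lay far below its lowest benign sample, and the log2 fold change was -3.39 (SE 0.17, adjusted p = 8.1e-09 by edgeR). Pecam1, the adhesion molecule CD31 used to stain vessels, ranged from 167 to 351 CPM in benign tissue (median 272) and from 20.4 to 28.0 CPM in tumors (median 26.9). The groups did not overlap, and tumors held 9.98% of the benign mean of Pecam1. The mean log2 CPM of the 8 core genes was 6.63 in benign tissue and 3.43 in tumors, a difference of -3.20 that corresponds to a level 9.19-fold lower.

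Promoters were read for the core genes, and for Pgf because it was the one member called higher. The RefSeq table of promoters (build GRCm38.p6, 250 bases before to 50 after each start) matched 20 of the 39 genes, with 26 promoters. Of the core genes it held Erg, Rasip1, Robo4 and Tie1. The 250 bases before the start are printed 5′ to 3′ on the strand of the gene, with the ETS word AGGAAG or its reverse complement CTTCCT in capitals, for Tie1 (chr4:118489850-118490099, minus strand), Robo4 (chr9:37401722-37401971, plus strand), Rasip1 (chr7:45627287-45627536, plus strand) and the upstream start of Pgf (chr12:85177314-85177563, minus strand).
Tie1: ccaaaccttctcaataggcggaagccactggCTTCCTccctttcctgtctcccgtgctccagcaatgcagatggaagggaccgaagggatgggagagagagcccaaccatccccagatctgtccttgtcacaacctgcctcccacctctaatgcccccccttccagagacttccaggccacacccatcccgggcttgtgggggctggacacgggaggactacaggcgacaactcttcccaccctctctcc
Robo4: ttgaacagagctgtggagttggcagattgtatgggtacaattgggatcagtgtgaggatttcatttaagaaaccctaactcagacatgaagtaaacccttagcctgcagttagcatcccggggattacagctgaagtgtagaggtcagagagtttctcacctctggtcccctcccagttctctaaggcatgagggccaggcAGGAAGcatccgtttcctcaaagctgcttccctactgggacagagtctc
Rasip1: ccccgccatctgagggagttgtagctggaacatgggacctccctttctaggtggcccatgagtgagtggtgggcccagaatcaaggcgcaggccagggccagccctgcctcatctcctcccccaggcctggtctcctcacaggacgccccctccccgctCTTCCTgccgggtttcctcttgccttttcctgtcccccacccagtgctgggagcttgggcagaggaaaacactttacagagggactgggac
Pgf: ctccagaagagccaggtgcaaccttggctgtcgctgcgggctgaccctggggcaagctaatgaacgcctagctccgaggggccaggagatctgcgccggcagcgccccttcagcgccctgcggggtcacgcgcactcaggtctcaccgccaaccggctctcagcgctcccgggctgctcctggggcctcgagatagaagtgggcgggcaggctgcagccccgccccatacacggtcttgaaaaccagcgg
The printed stretches of Tie1, Robo4 and Rasip1 each held the word 1 time, and that of Pgf held it 0 times. One of the 3 promoters of Erg held it as well, and the others did not. Over the 250 bases before the start, the word was found in 12 of the 26 member promoters (46.2%) and in 29.5% of all promoters. Over the whole 300-base promoters, AGGAAG on either strand was found in 12 of the 26 member promoters (46.2%) and in 35.4% of the 32851 promoters of the table. By gene, 11 of the 20 matched genes held it. Cldn5, Tek, Kdr, Flt4, Pdpn, Vegfb and Vegfc, which were all lower in tumors, did not hold it, and neither did Pgf and Prox1. The printed genes are therefore not a picture of all matched members. A second ETS word, CCGGAA, was found in 1 of the 26 (14.9% of all promoters), the SOX word AACAAT in 4 (10.7% of all) and the FOX word TAAACA in 4 (13.4% of all), each searched on both strands. The words were searched as letters, the ETS words share the letters GGAA, and a match is a description of the sequence and not a site.

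Junction and surface genes were lower in 10 of 10 cases, with log2 fold changes from -4.71 to -2.31. Cldn5, the claudin that seals endothelial tight junctions, showed the deepest fall of the 39 genes, from 21.0 to 86.3 CPM in benign tissue (median 47.4) to 0.934 to 2.53 CPM in tumors (median 1.90). The groups were far apart, and the log2 fold change was -4.71 (SE 0.36, adjusted p = 2.4e-07 by edgeR). Icam2, an adhesion molecule of endothelium and leukocytes, ranged from 11.1 to 33.2 CPM in benign tissue and from 0.963 to 2.49 CPM in tumors, a log2 fold change of -3.67. Its highest benign value came from sample 1, the sample with the lymphocyte genes, and without that sample the log2 fold change was -3.38.

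Esam, a junctional adhesion molecule, and Robo4, the endothelial roundabout receptor, had log2 fold changes of -3.14 and -3.15, and Mmrn2, a matrix glycoprotein of endothelium, had one of -2.95. The smallest falls of the group were those of 3 genes. Cd34, a sialomucin that is also carried by progenitors in fat, ranged from 127 to 212 CPM in benign tissue and from 14.3 to 29.6 CPM in tumors, a log2 fold change of -2.71. Emcn, the sialomucin endomucin of veins and capillaries, ranged from 31.5 to 61.0 CPM and from 5.78 to 8.31 CPM, a log2 fold change of -2.70. Plvap, which forms the diaphragms of fenestrae and caveolae, ranged from 93.1 to 175 CPM and from 17.5 to 31.2 CPM, a log2 fold change of -2.31. In each of these 3 genes the groups were still separate.

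**Figure D2:**
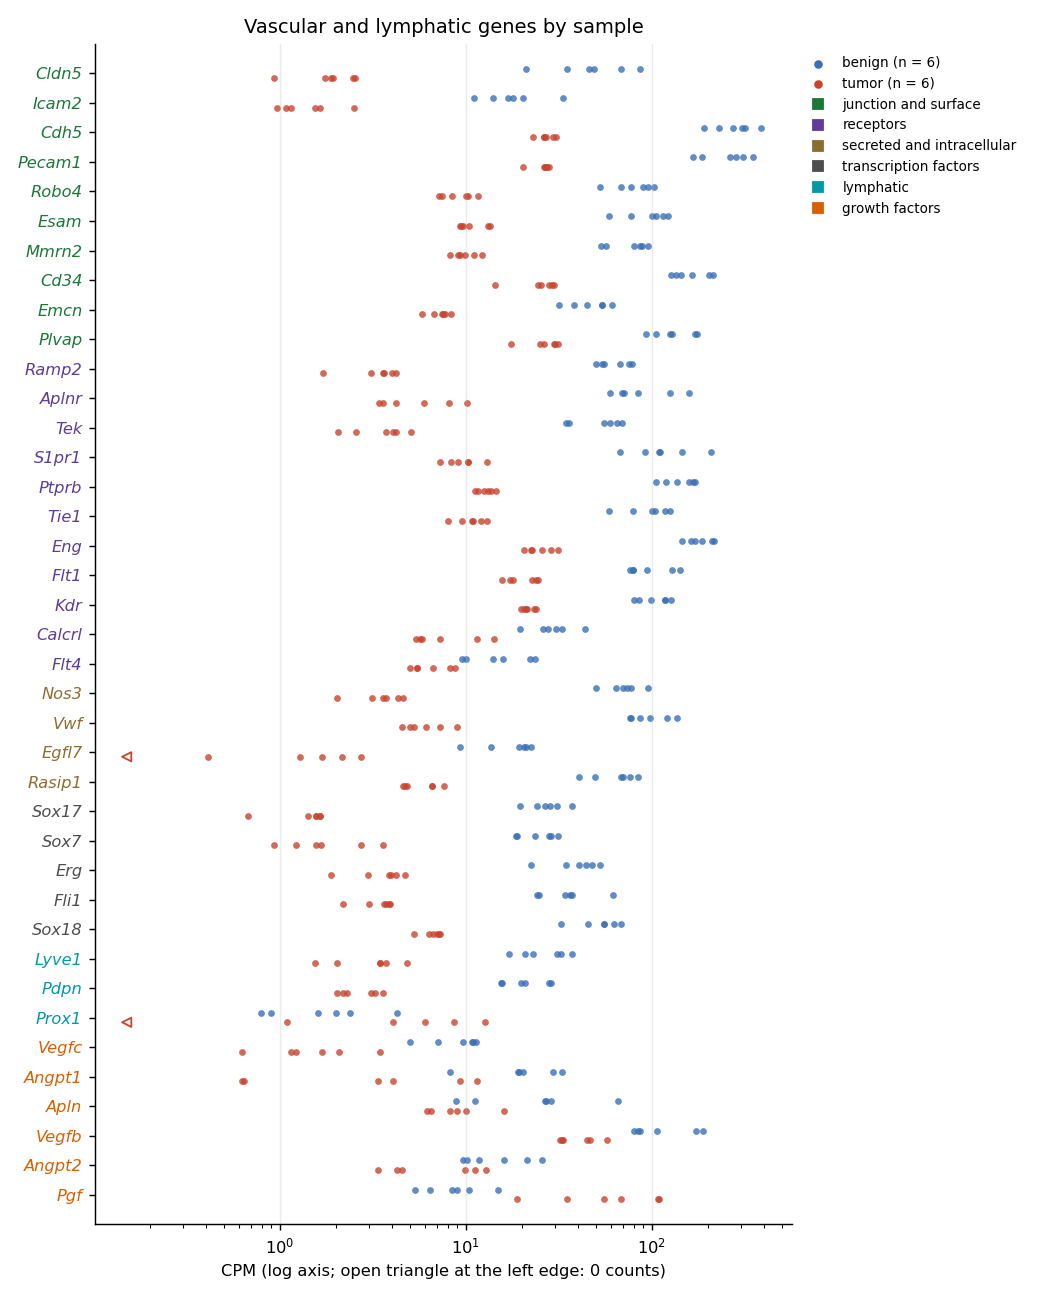
Each point is the level of a gene in a sample (CPM, log x axis) for the 6 benign samples and the 6 tumors, with genes in rows grouped by role and ordered by fold change. The groups are separate for all 30 endothelial markers and overlap for Prox1, Angpt1, Angpt2 and Apln, and open triangles mark the 2 values with 0 counts.

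Receptors were lower in 11 of 11 cases, but their log2 fold changes spread more widely, from -4.22 to -1.26. The 3 VEGF receptors were among the shallowest. Kdr, the main signaling receptor for VEGF on blood endothelium, ranged from 80.3 to 126 CPM in benign tissue (median 108) and from 19.8 to 23.8 CPM in tumors (median 21.2). Flt1, which binds VEGF family ligands and serves largely as a decoy, ranged from 76.7 to 141 CPM (median 87.0) and from 15.7 to 24.3 CPM (median 20.3). Both receptors were well separated between the groups and fell by similar amounts, with log2 fold changes of -2.27 (SE 0.13, adjusted p = 2.3e-08) for Kdr and -2.30 (SE 0.19, adjusted p = 5.5e-07) for Flt1 by edgeR. Flt4, the receptor for Vegfc that is prominent on lymphatic endothelium, ranged from 9.49 to 23.5 CPM (median 14.9) and from 4.99 to 8.79 CPM (median 6.07). Its groups came close without overlapping, and its log2 fold change of -1.26 (SE 0.26, adjusted p = 0.0013 by edgeR) was the smallest of the 30 markers.

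The angiopoietin receptor and its partners fell further. Tek, also called Tie2, ranged from 34.6 to 68.9 CPM in benign tissue (median 57.5) and from 2.06 to 5.05 CPM in tumors (median 3.89), a log2 fold change of -3.87 (SE 0.26, adjusted p = 8.3e-08 by edgeR). Its relative Tie1, an orphan receptor, fell by 3.18 on the log2 scale, and Ptprb, the phosphatase that restrains Tek, fell by 3.48. Every tumor lay below every benign sample in all 3 genes.

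The receptors for peptides and lipids differed widely in their falls. Ramp2, the accessory protein that turns the receptor encoded by Calcrl into the adrenomedullin receptor, ranged from 49.9 to 77.8 CPM in benign tissue and from 1.71 to 4.21 CPM in tumors, a log2 fold change of -4.22 (SE 0.21, adjusted p = 8.1e-09 by edgeR). Calcrl itself ranged from 19.6 to 43.7 CPM and from 5.36 to 14.1 CPM, a log2 fold change of -1.86 (SE 0.28, adjusted p = 9.5e-05 by edgeR). The 2 partners of this receptor thus fell by different amounts. Aplnr, the apelin receptor, ranged from 59.6 to 158 CPM and from 3.42 to 10.1 CPM, a log2 fold change of -3.98 (SE 0.35, adjusted p = 7.6e-07 by edgeR). S1pr1, a sphingosine 1-phosphate receptor of endothelium and lymphocytes, fell by 3.65 on the log2 scale and had its highest value, 208 CPM, in benign sample 1. Without that sample its log2 fold change was -3.39. Eng, the TGF-beta co-receptor endoglin, fell by 2.85 on the log2 scale, with 144 to 216 CPM in benign tissue and 20.5 to 31.2 CPM in tumors.

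The secreted and intracellular products were lower in 4 of 4 cases. Nos3, the endothelial nitric oxide synthase, ranged from 49.8 to 94.9 CPM in benign tissue (median 71.9) and from 2.02 to 4.60 CPM in tumors (median 3.65), and Vwf, the clotting factor carrier stored in endothelial granules, ranged from 75.8 to 137 CPM (median 92.0) and from 4.51 to 8.91 CPM (median 5.65). Their log2 fold changes were -4.32 (SE 0.21, adjusted p = 6.9e-09) for Nos3 and -3.998 (SE 0.22, adjusted p = 1.5e-08) for Vwf by edgeR, and neither gene overlapped between groups. Rasip1, a Ras-interacting protein needed for vessel lumens, fell by 3.47 on the log2 scale. Egfl7, a secreted matrix protein of endothelium, ranged from 9.23 to 22.5 CPM in benign tissue and from 0 to 2.74 CPM in tumors, a log2 fold change of -3.63 (SE 0.55). Its value of 0 came from tumor 1, where a count of 0 allows up to 0.467 CPM.

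Transcription factors of endothelium were lower in 5 of 5 cases. Sox17, the SOXF factor associated with arteries, ranged from 19.5 to 37.3 CPM in benign tissue (median 27.4) and from 0.675 to 1.65 CPM in tumors (median 1.56), a log2 fold change of -4.27 (SE 0.24, adjusted p = 1.8e-08 by edgeR). Its relatives Sox7 and Sox18 fell by 3.65 and 3.01 on the log2 scale. The ETS factor Erg ranged from 22.3 to 52.5 CPM and from 1.89 to 4.68 CPM, a log2 fold change of -3.48, and Fli1, an ETS factor also made by blood cells, ranged from 24.1 to 61.9 CPM and from 2.18 to 3.91 CPM, a log2 fold change of -3.41. All 5 factors were separate between the groups, and the highest Fli1 value again came from benign sample 1, without which the log2 fold change was -3.15.

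The samples that were highest or lowest were counted over the markers. Among benign samples, sample 3 was the lowest for 25 of the 30 endothelial markers and sample 2 the highest for 15. Among tumors, tumor 4 was the lowest for 12 and tumor 3 the highest for 13, while tumor 2 was the highest for 7 and the lowest for 7. The summed level differed less among tumors than among benign samples, as given above. The median coefficient of variation of the 30 markers was 25.2% in benign tissue and 21.0% in tumors, beside 23.1% and 20.6% over all genes tested.

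**Figure D3:**
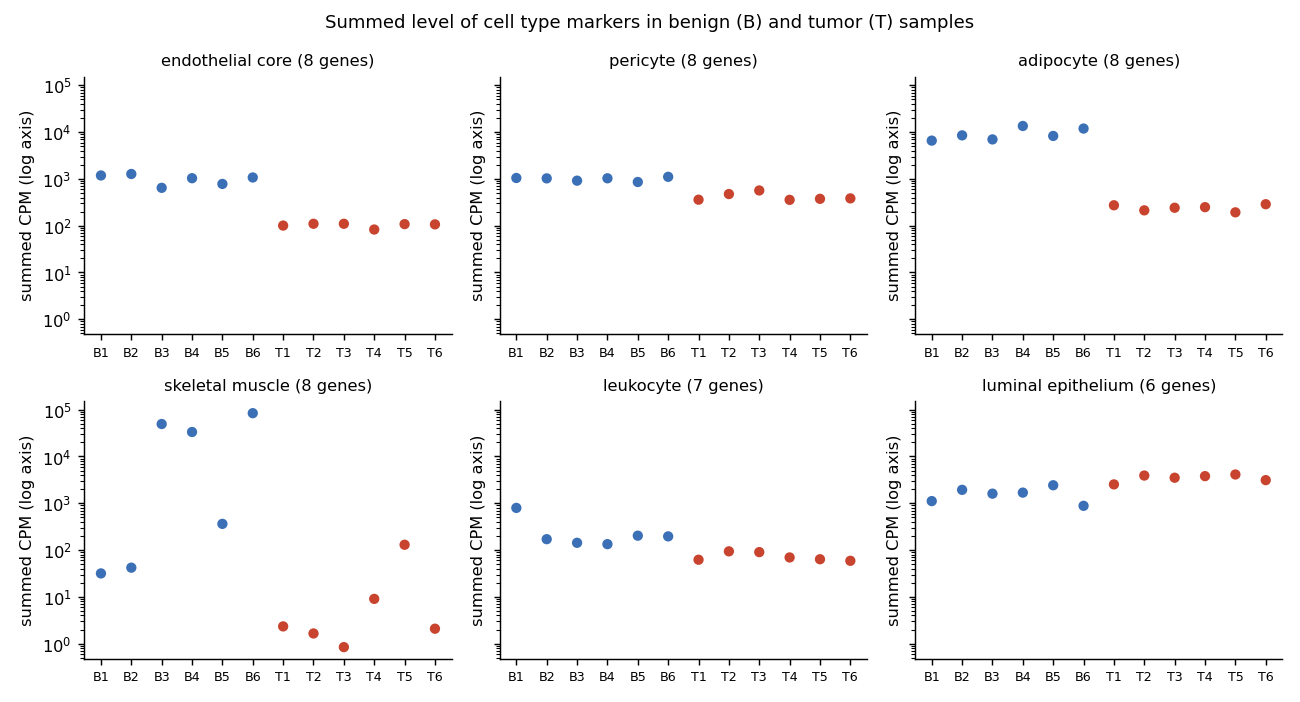
The summed level of marker genes (CPM, log y axis, the same in all panels) is drawn for each benign sample (B1 to B6) and each tumor (T1 to T6), for 6 lists of markers. The endothelial core, pericyte, adipocyte, leukocyte and luminal epithelium sums are separate between groups, and the skeletal muscle sums overlap. Skeletal muscle RNA is concentrated in B3, B4 and B6, and leukocyte RNA is highest in B1.

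Markers of other cell types moved between the groups as well, and their counts stand beside 34.8% of all genes tested lower and 28.2% higher. Adipocyte genes were lower in 8 of 8 cases, with a summed level of 6586 to 13540 CPM in benign tissue and 193 to 288 CPM in tumors and a median log2 fold change of -8.22, and fibroblast genes were lower in 6 of 6 cases (4135 to 10540 CPM against 368 to 883 CPM, median -4.02). Of the pericyte genes, which mark the cells wrapped around capillaries, 7 of 8 were lower and 1, Notch3, was higher, with a summed level of 860 to 1109 CPM against 357 to 567 CPM and a median log2 fold change of -1.94. Luminal epithelial genes were higher in 5 of 6 cases, with a median log2 fold change of 1.17, and Krt19 was lower. Skeletal muscle genes were lower in 5 of the 5 tested (31.7 to 84260 CPM against 0.843 to 130 CPM), brown fat genes in 4 of 5 (41.1 to 3154 CPM against 12.3 to 36.4 CPM) and leukocyte genes in 4 of 5 (134 to 796 CPM against 58.9 to 93.9 CPM). Several of these counts changed when samples that stood apart were left out, which also makes the benign group smaller. Without benign samples 3, 4 and 6, 1 of 5 skeletal muscle genes, 2 of 5 brown fat genes and 6 of 8 pericyte genes were lower. In that setting 3906 of all 13604 genes tested were lower. Notch3 was no longer called, although its log2 fold change moved little, from 0.43 to 0.32 (adjusted p = 0.13 by edgeR). Without benign sample 1, 3 leukocyte genes were lower and Ptprc was no longer called (0.15, adjusted p = 0.58). No marker in these lists was at 0 in all tumors. The part of the tissue's cell makeup in the fall of the vascular genes was not tested.

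Of the genes of lymphatic vessels, 2 of 3 were lower. Lyve1, the hyaluronan receptor of lymphatic endothelium and of some macrophages, ranged from 17.0 to 37.3 CPM in benign tissue (median 26.8) and from 1.54 to 4.82 CPM in tumors (median 3.44), a log2 fold change of -3.08 (SE 0.29, adjusted p = 1.9e-06 by edgeR). Pdpn, the membrane protein podoplanin of lymphatic endothelium and some stromal cells, ranged from 15.5 to 28.5 CPM (median 20.2) and from 2.02 to 3.58 CPM (median 2.69), a log2 fold change of -2.96 (SE 0.23, adjusted p = 3e-07 by edgeR). Both genes were separate between the groups.

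Prox1, the transcription factor that specifies lymphatic identity, was the one gene that did not pass the test. It was read at 4.26, 2.39, 0.791, 0.891, 1.998 and 1.598 CPM in benign samples 1 to 6 and at 1.09, 8.66, 6.02, 12.7, 0 and 4.06 CPM in tumors 1 to 6. Tumors 2, 3 and 4 exceeded every benign sample, tumors 1 and 6 lay within the benign range and tumor 5 lay below it, and the count of 0 in tumor 5 allows up to 0.384 CPM. The log2 fold change was 1.45 (SE 0.78, adjusted p = 0.13 by edgeR). This outcome rested on single samples, since without tumor 1, tumor 5 or benign sample 1 the log2 fold change was 1.73, 1.77 and 1.84, with adjusted p-values of 0.078, 0.018 and 0.078.

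Of the 6 growth factors, 5 were lower and 1, Pgf, was higher. Vegfa was neither a member nor in the other lists read here, so the VEGF family is covered only in part. Pgf, placental growth factor, is a VEGF family ligand of Flt1. It was read at 10.4, 14.9, 8.97, 6.41, 8.37 and 5.33 CPM in benign samples 1 to 6 and at 109, 108, 68.4, 18.9, 34.8 and 55.4 CPM in tumors 1 to 6. Every tumor lay above every benign sample, although tumor 4 came close to benign sample 2. The log2 fold change was 2.85 (SE 0.42, adjusted p = 7.5e-05 by edgeR), and it stayed between 2.71 and 3.11 when each sample was left out in turn and was 2.58 (adjusted p = 0.0042) without benign samples 3, 4 and 6.

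**Figure D4:**
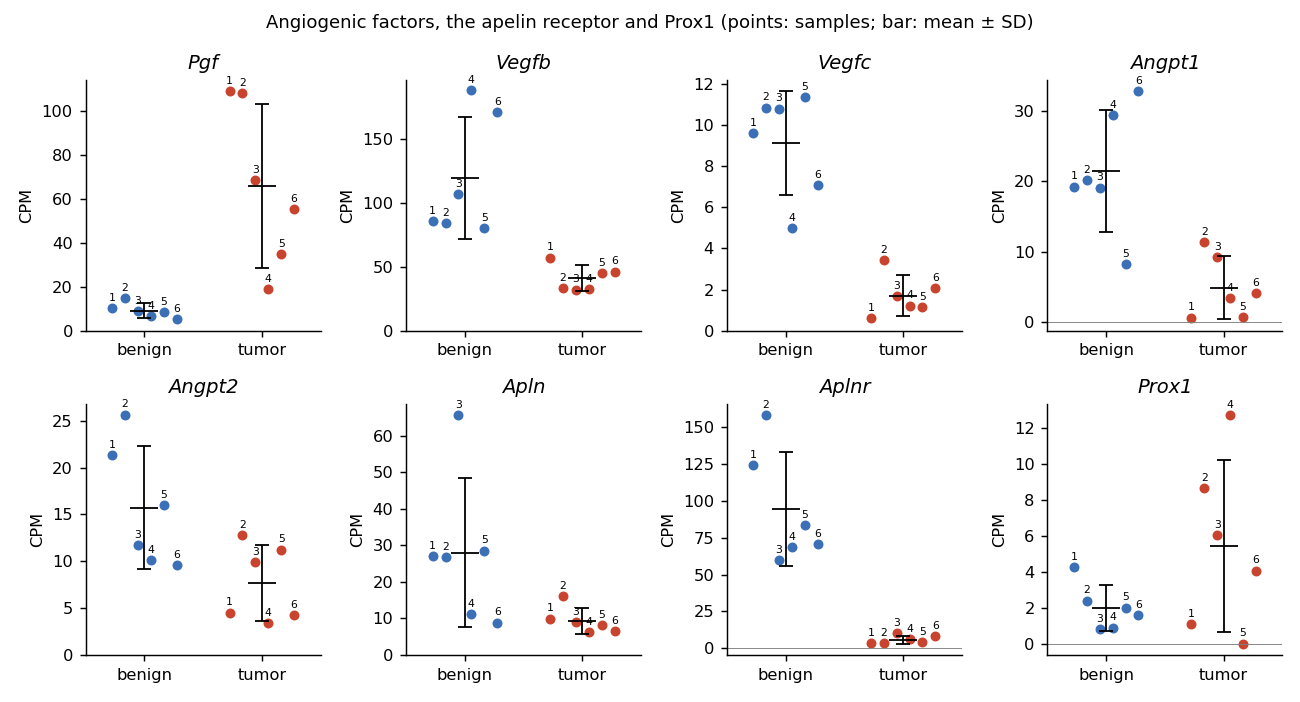
Levels in CPM (y axis) are drawn for the 6 growth factors, the apelin receptor Aplnr and Prox1, with a numbered point per sample and a bar for the mean ± SD of 6 samples. Pgf is higher in all 6 tumors, Vegfb, Vegfc and Aplnr are lower in all 6, and Angpt1, Angpt2, Apln and Prox1 overlap.

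Vegfb and Vegfc, also of the VEGF family, fell. Vegfb, a ligand of Flt1 that is abundant in muscle and fat, was read at 86.0, 84.5, 107, 189, 80.5 and 171 CPM in benign samples 1 to 6 and at 32.1 to 57.3 CPM in tumors (median 39.2). The groups did not overlap, and the 3 highest benign values were those of samples 3, 4 and 6, the samples with the most skeletal muscle RNA. The log2 fold change was -1.54 (SE 0.25, adjusted p = 0.00019 by edgeR) with all samples and -0.98 (adjusted p = 0.002) without those 3. Vegfc, the lymphatic growth factor that binds Flt4, ranged from 4.99 to 11.4 CPM in benign tissue (median 10.2) and from 0.623 to 3.44 CPM in tumors (median 1.45), a log2 fold change of -2.41 (SE 0.36, adjusted p = 9.9e-05 by edgeR). Its groups were separate as well.

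The angiopoietins and apelin were lower with overlap between the groups. Angpt1, which pericytes and stromal cells make and which activates Tek, was read at 19.3, 20.2, 19.1, 29.4, 8.24 and 32.8 CPM in benign samples 1 to 6 and at 0.623, 11.4, 9.27, 3.38, 0.639 and 4.06 CPM in tumors 1 to 6. Tumors 2 and 3 exceeded benign sample 5, and the log2 fold change was -2.12 (SE 0.62, adjusted p = 0.01 by edgeR). Without benign samples 3, 4 and 6 it was -1.65 with an adjusted p of 0.10 and no longer passed.

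Angpt2, which endothelial cells release and which can oppose Angpt1, ranged from 9.59 to 25.7 CPM in benign tissue (median 13.9) and from 3.38 to 12.8 CPM in tumors (median 7.19). Tumors 2, 3 and 5 lay within the benign range, and the log2 fold change of -1.03 (SE 0.38, adjusted p = 0.033 by edgeR) became -0.78 with an adjusted p of 0.10 without benign sample 2. Apln, the apelin peptide made by sprouting endothelium and by fat, ranged from 8.88 to 65.7 CPM (median 26.9) and from 6.21 to 16.1 CPM (median 8.54). Benign sample 3 was far above the rest, benign samples 4 and 6 lay within the tumor range, and the log2 fold change was -1.59 (SE 0.44, adjusted p = 0.0072 by edgeR).

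Ratios between members within a sample do not depend on library scaling. Since genes differ in length, only the change of a ratio between groups was read, by exact two-sided permutation over the 924 regroupings, with p-values adjusted over the 3 ratios. The log2 ratio of Pgf to Vegfb was 4.14 higher in tumors (-3.67 ± 0.999 in benign tissue and 0.47 ± 0.94 in tumors, mean ± SD, n = 6 each), and it was higher in 6 of 6 tumors than in any benign sample. Its exact permutation p was 0.00216, the smallest that this design can give, and 0.00648 after adjustment. Every tumor lay above every benign sample for Pgf and below every benign sample for Vegfb. The separation of this ratio, and so its p-value with all samples or fewer, was therefore fixed by the results of the single genes and is not separate support. Without benign samples 3, 4 and 6 the difference was 3.38 (exact permutation p = 0.0119). The log2 ratio of Kdr to Flt1 differed by 0.027 between groups, which was less than the spread between samples (SD 0.37 in benign tissue and 0.30 in tumors, exact permutation p = 0.89). The log2 ratio of Angpt2 to Angpt1 was 1.49 higher in tumors (-0.42 ± 1.07 in benign tissue and 1.065 ± 1.58 in tumors, exact permutation p = 0.104, 0.156 after adjustment). The ratio was highest in tumors 1 and 5, whose log2 ratios were 2.41 and 3.65 against 0 to 0.160 in the other tumors, and the difference was 0.59 without benign samples 3, 4 and 6 (exact permutation p = 0.714).

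To ask which genes departed from the fall of the core, each gene was also tested per unit of endothelial core RNA. The mean log CPM of the 8 core genes was added to the offset of each sample in the same edgeR test. The error of the core level itself does not enter these p-values. On this scale the median log2 fold change of all genes was 3.10, so a value of 0 means a fall equal to that of the core. Of the 31 members outside the core, 8 were lower, 14 were higher and 9 did not pass, beside 4.66% of all genes lower and 89.8% higher.

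The 8 genes that fell beyond the core were Cldn5 at -1.43, Nos3 at -1.15, Sox17 at -1.09, Ramp2 at -1.04, Vwf at -0.79, Aplnr at -0.75, Tek at -0.62 and S1pr1 at -0.41 in log2 fold change per core RNA. The best supported of these was Cldn5 (SE 0.25, adjusted p = 5e-05 by edgeR), and the least was S1pr1 (SE 0.20, adjusted p = 0.064). S1pr1 was highest in benign sample 1. Without that sample its log2 fold change for tumor against benign was -3.39, beside a median of -3.13 for the core genes.

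Among the 30 endothelial markers, 8 were higher per core RNA. Flt4 led them at 1.98 (SE 0.23, adjusted p = 4.6e-07 by edgeR), followed by Calcrl at 1.32, Kdr at 0.95, Plvap at 0.92, Flt1 at 0.88, Emcn at 0.54, Cd34 at 0.48 and Eng at 0.34. All 3 VEGF receptors were thus in this group, having fallen less than the core. The other 6 genes higher per core RNA were Pgf at 6.01, Prox1 at 4.77, Angpt2 at 2.13, Vegfb at 1.65, Apln at 1.36 and Angpt1 at 1.04. Of these only Pgf and Prox1 exceeded the median of all genes on this scale. The 9 that did not pass were Icam2, Ptprb, Egfl7, Fli1, Sox7, Sox18, Lyve1, Pdpn and Vegfc, with values between -0.48 and 0.68.

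**Figure D5:**
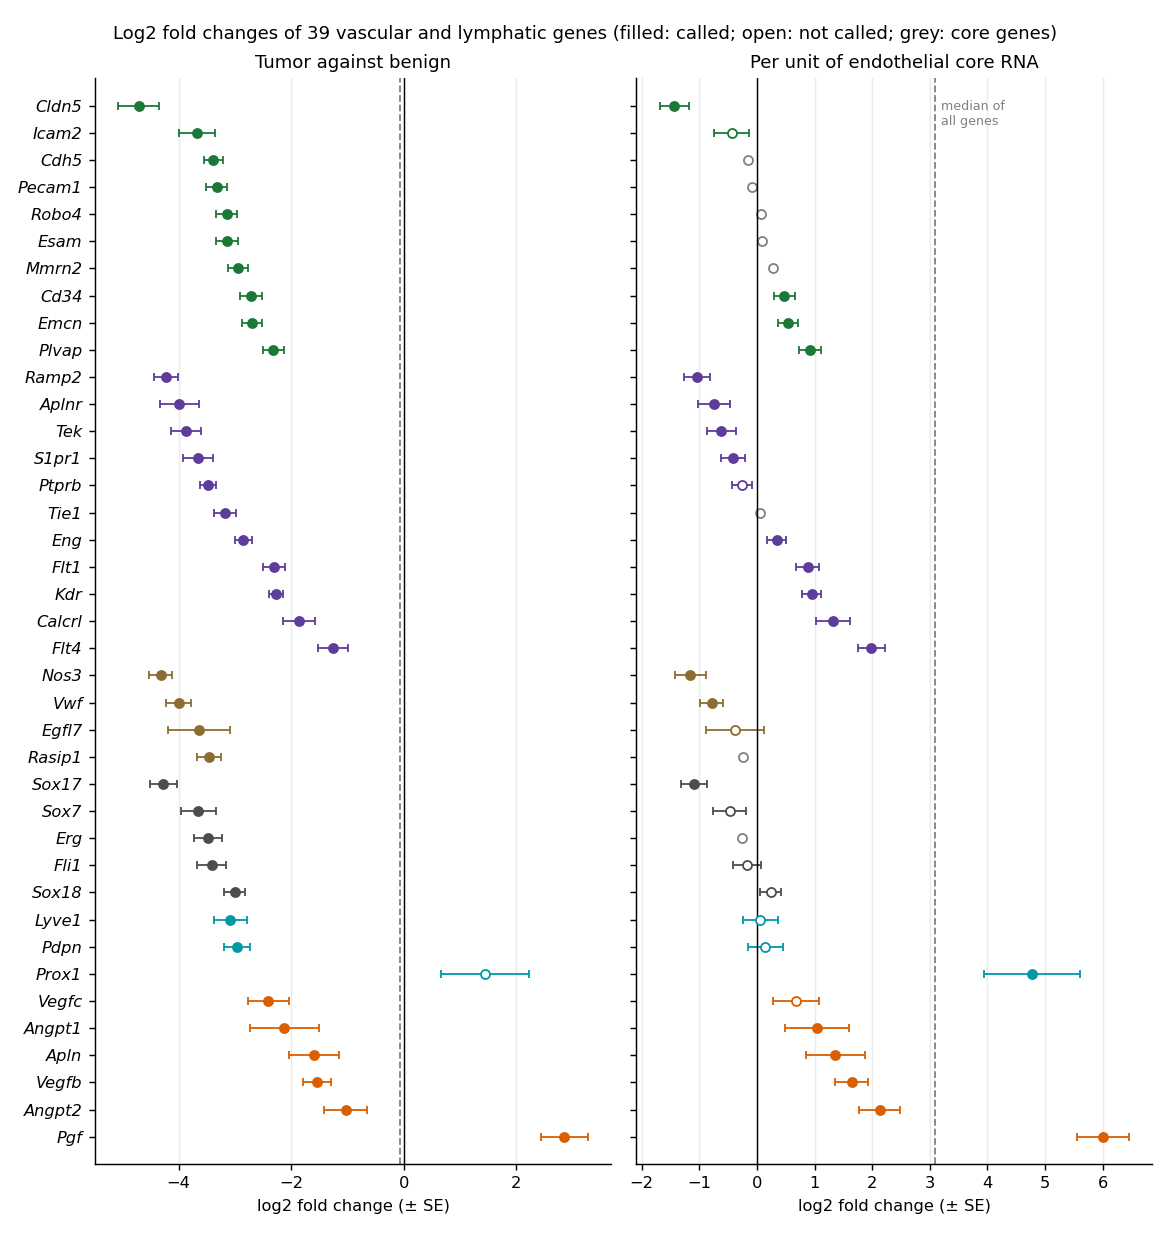
Log2 fold changes ± SE (x axis) are drawn for the 39 genes, on the left for tumor against benign and on the right per unit of endothelial core RNA, with filled points for called genes, grey open points for the 8 core genes on the right, colors by role as in the plot of levels by sample, and dashed lines at the median of all genes (-0.062 and 3.10). Cldn5, Nos3, Sox17 and Ramp2 lie furthest below 0 on the right, and Pgf and Prox1 lie beyond the dashed line.

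Other genes of the same pathways were counted from 6 lists that held no member. Of the 59 that were in the table, 53 were tested, and 43 were lower, 4 were higher and 6 did not pass, with a median log2 fold change of -2.18. Of all genes tested, 34.8% were lower and 28.2% were higher, and the counts of each list are to be read beside these shares. The lists are small. Further endothelial genes were lower in 17 of 18 cases, and the deepest fall was that of Cd300lg, a glycoprotein of capillary endothelium, which ranged from 126 to 259 CPM in benign tissue and from 5.29 to 8.44 CPM in tumors (log2 fold change -4.78, SE 0.22). Other lymphatic genes were lower in 3 of 3 cases, with the largest fall in Reln, the secreted protein reelin (-2.29, SE 0.61), whose groups overlapped. Other angiogenic factors were lower in 7 of 7 cases, with the largest fall in Angptl4, a lipoprotein lipase inhibitor that fat makes in quantity, from 135 to 390 CPM in benign tissue to 6.69 to 12.4 CPM in tumors (-4.65, SE 0.30).

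Arterial and venous genes were mixed, with 8 of 12 lower and 2 higher. Ackr1, the chemokine receptor of venules, fell by 4.18 on the log2 scale, whereas Hey1, a Notch target that is also made outside endothelium, ranged from 8.15 to 22.5 CPM in benign tissue and from 211 to 528 CPM in tumors, a log2 fold change of 4.83 (SE 0.29, adjusted p = 3.4e-08 by edgeR). The other was Ephb4, the ephrin receptor of veins that epithelium also makes, at 87.7 to 153 CPM and 212 to 432 CPM (log2 fold change 1.38), which is named because it completes the 4 and was chosen after its value was seen. In neither gene did the groups overlap.

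Genes of tip cells, the cells that lead a sprout, were lower in 2 of 6 cases and higher in 1, shares near the 34.8% and 28.2% of all genes tested. Pdgfb, with which sprouting endothelium recruits pericytes, fell by 2.28 on the log2 scale (SE 0.18), and Kcne3, a potassium channel subunit, rose from 0 to 1.95 CPM in benign tissue to 2.02 to 5.60 CPM in tumors (log2 fold change 2.18, SE 0.51). Angiogenesis inhibitors were lower in 6 of 7 cases and higher in 1. Col18a1, the collagen from which endostatin is cleaved, fell by 2.94 on the log2 scale (SE 0.22), and Thbs1, thrombospondin 1, rose from 92.5 to 231 CPM to 367 to 1480 CPM (log2 fold change 2.65, SE 0.41, adjusted p = 0.00013 by edgeR). The 6 genes of all lists that did not pass were Unc5b, Notch4, Hey2, Esm1, Cxcr4 and Adm, with log2 fold changes from -0.77 to 0.47. Esm1, Cxcr4 and Adm are the 3 tip cell genes among them.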

How the data were processed

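RNA of 6 mammary tumors and 6 benign mammary samples was enriched for poly A and sequenced in pairs from directional libraries. The authors trimmed reads with Trim Galore, quantified transcripts with Salmon against mm10 per the labels, ran DESeq2, and deposited whole-number estimated counts for each gene, without scaling by library size. Versions and the annotation are not given in the sources used here. Every column was matched to a sample by its label. Estimated counts of genes with related copies or overlapping transcripts depend on how Salmon divides reads.

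Counts were filtered (filterByExpr, minimum count 10, minimum total 15), scaled by TMM and tested by quasi-likelihood in edgeR 4.0.16 (R 4.3.3), with Benjamini-Hochberg adjustment over 13191 genes. SE was derived from the fold change and its F statistic. DESeq2 1.42.0 was an alternative. Values per sample are CPM. Log ratios used 2 added counts. A count of 0 was given the upper limit of 3 counts, which covers counting error only. From each pathway list the called genes with the largest rise and fall and at least 1 CPM in the higher group are named. Unc5b, Notch4, Hey2, Esm1, Cxcr4, Adm and Ephb4, and the markers Ptprc, Cd3e, Cd79a, Notch3 and Krt19, are named beyond that rule. The members and lists, the core genes and the samples left out together were chosen with earlier results of these data known. Equal replicate numbers mark different mice, with correlations of deviations from -0.124 to 0.103, so samples were not paired.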

Additional observations from a re-analysis of the deposited data

Results flagged for a closer look

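Gaps between samples were read on the log2 CPM scale, and the outcome depends on that scale. Among the 39 genes, 4 of the 78 groups of 6 samples held a sample whose gap to its neighbor exceeded Dixon's 95% critical value. Chance gives about 1 in 20 groups. In each case the sample was the lowest of the tumors. Tumor 4 was the sample for Pecam1 at 20.4 CPM (151 counts), for Cd34 at 14.3 CPM (106 counts) and for Sox17 at 0.675 CPM (5 counts). Tumor 1 was the sample for Ramp2 at 1.71 CPM (11 counts).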

How the results depend on the processing

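The number of members lower in tumors was 37, and it was 37 with DESeq2, upper-quartile scaling, total counts, no filter, an adjusted p under 0.05 and the replicate block, 36 to 37 when each sample was left out, 36 without benign samples 3, 4 and 6, and 30 with at least 10 counts in every sample, where fewer members were tested. The number higher was 1, and 1 to 2 when each sample was left out, with Prox1 as the second. Of 733 values for single members under the alternatives, 728 kept their direction and side of the threshold, 3 passed newly (Prox1) and 2 no longer passed (Angpt1 and Angpt2). Per core RNA, 8 members were lower (7 to 9 when each sample was left out, 7 with the replicate block) and 14 higher (12 to 16, and 12 with the replicate block). With all 30 endothelial markers as the core the counts were again 8 and 14, although the counted markers then form part of it.

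The log2 difference of the Kdr to Flt1 ratio, 0.027, ranged from -0.094 to 0.123 when each sample was left out and was -0.234 without benign samples 3, 4 and 6, so its sign is not settled. Adm, at -0.25, ranged from -0.546 to 0.024 when each sample was left out, and was above 0 without tumor 4 only. Esm1 passed without benign sample 2 (0.96, adjusted p = 0.052 by edgeR). Notch4 passed with the replicate block (-1.14, adjusted p = 0.07) and without tumor 5 (-1.32, adjusted p = 0.0016). The causes were not tested. The replicate block changed no other call among the members and pathway genes, but among the markers Ptprc (-0.46, adjusted p = 0.59), Cox7a1 (-1.29, 0.31) and Ckm (-8.56, 0.13) no longer passed. Pathway genes lower numbered 43, 39 to 44 when each sample was left out, and 47 with DESeq2. Egfl7, Prox1, Angpt1, Vegfc, Sox17, Cldn5, Sox7 and Icam2 had between 0 and 8 counts in their lowest tumor.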
